A study of Mus musculus with 6 samples.

Results

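Peaks of pSmad1/5 and Smad4 near 9 genes that restrain or tune bone morphogenetic protein (BMP) signalling were examined in molar tooth germ and limb of the mouse embryo. The genes were Grem1, Nog, Chrd, Bmper, Bambi, Sostdc1, Fst, Twsg1 and Rgmb, out of 21887 protein-coding genes. For short they are called antagonist genes below, although Rgmb favours signalling and Bmper and Twsg1 can act either way. They were chosen by name, with earlier results of these data known. A peak was counted for a gene when its summit lay inside the gene or within 50 kb of either end. By this rule 60 peaks were counted, namely 7 of the 23389 limb pSmad1/5 peaks, 16 of the 29756 limb Smad4 peaks, 27 of the 35476 molar pSmad1/5 peaks and 10 of the 34561 molar Smad4 peaks. All 4 libraries came from wild-type CD1 embryos at E13.5 (embryonic day). By their labels they differ in tissue and antibody only, with 1 library for each combination. The sources used here do not give the number of embryos behind a library. Chromatin immunoprecipitation was followed by sequencing, and 2 input samples belong to the series but were not analysed here.

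BMP ligands bind receptor kinases at the cell surface, which phosphorylate Smad1 and Smad5. Phosphorylated Smad1/5 joins Smad4, enters the nucleus and binds regulatory DNA. Antagonists act upstream of this step: they hold ligands away from the receptors or blunt receptor activity, and several are themselves transcribed in response to BMP, which makes a feedback loop. In the limb bud Grem1 links sonic hedgehog and Fgf signals by lowering BMP activity, and in the tooth Sostdc1 tunes the size and spacing of cusps and teeth.

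Since no combination was replicated, differences between the lists carry no replicate error and no p-value was computed. The lists hold no read counts, so sequencing depth is unknown, and the absence of a peak means only that none was listed. Peak lists carry no expression values, so the labelled tissues could not be checked against marker genes. Each peak carries the authors' own enrichment score, which has no unit and is used here only to describe and rank peaks within a list. The lowest score listed differs between chromosomes. Both limb lists go down to 3 on every chromosome of these genes. The molar pSmad1/5 list goes down to 2 on chromosomes 12, 13 and 16 (Sostdc1, Fst and Chrd) and to 3 on the others, and the molar Smad4 list stops at 4 on chromosomes 2, 9 and 11 (Grem1, Bmper and Nog) and at 3 on the others. Counts at these genes therefore cannot be compared between lists without regard to the score, and the main molar pSmad1/5 counts are also given at a minimum of 3. Since the score has no unit and depth is unknown, an equal minimum does not put the lists on a common scale.

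Sequence is shown for Grem1, Chrd and Rgmb, because among the genes with a RefSeq promoter entry these had peaks nearest to a transcription start, 81, 200 and 294 bp downstream of it. The stretches are the 250 bases before the start on GRCm38.p6, whose primary chromosomes have the coordinates of mm10. Capitals mark GGCGCC, a GC-rich letter string known to be bound by Smad1/5, and GGAGCC, a related string, searched on both strands. The sequences are credited to RefSeq.
Grem1, chr2:113758649-113758898, minus strand: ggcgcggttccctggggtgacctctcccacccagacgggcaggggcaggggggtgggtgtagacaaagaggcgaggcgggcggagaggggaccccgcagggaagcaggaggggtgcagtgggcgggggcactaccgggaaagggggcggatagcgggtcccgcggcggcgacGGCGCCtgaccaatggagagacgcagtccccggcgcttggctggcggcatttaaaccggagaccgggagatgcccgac
Chrd, chr16:20732877-20733126, plus strand: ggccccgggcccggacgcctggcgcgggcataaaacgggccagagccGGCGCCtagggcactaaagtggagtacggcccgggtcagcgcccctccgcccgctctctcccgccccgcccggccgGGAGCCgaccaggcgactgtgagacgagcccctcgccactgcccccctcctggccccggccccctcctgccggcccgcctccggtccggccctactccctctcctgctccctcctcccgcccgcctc
Rgmb, chr17:15831066-15831315, minus strand: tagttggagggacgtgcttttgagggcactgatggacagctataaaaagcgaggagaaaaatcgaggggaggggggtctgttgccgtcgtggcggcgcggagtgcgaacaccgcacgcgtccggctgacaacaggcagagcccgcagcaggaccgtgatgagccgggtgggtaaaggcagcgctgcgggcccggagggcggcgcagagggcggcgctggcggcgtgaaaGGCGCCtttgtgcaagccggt

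Each of these stretches holds GGCGCC once, beginning 78 bases before the start of Grem1, 203 before that of Chrd and 21 before that of Rgmb. Over RefSeq windows of 300 bases (250 before and 50 after a start), 5 of the 9 genes had an entry, with 7 windows in all since Rgmb has 3 starts, and GGCGCC stood in 3 of the 7. Of 21263 such windows of protein-coding genes, 15.3% hold it. These 3 stretches are rich in G and C, at 72.0%, 78.0% and 66.0%, where the median over protein-coding genes was 55.6%. GGAGCC stood in windows of Bmper (3 matches), Twsg1 (2), Chrd (1) and a further start of Rgmb (1), which is 4 of the 7, and in 34.9% of all protein-coding windows. GTCTAGAC, the palindrome made of paired Smad boxes, and GGCGCC followed by GTCT after a gap of 5 bases matched none of the 7, and matched 0.226% and 0.0847% of all protein-coding windows. The peaks themselves lay just beyond the printed stretches, inside the genes, so the matches describe neighbouring sequence and not peak sequence.

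All 9 genes had a peak in at least 1 list, and none of the lists covered all 9. By the 50 kb rule, limb pSmad1/5 peaks lay near 3 of the 9 genes (Chrd, Bmper and Twsg1), where 68.0% of all protein-coding genes had one. Limb Smad4 peaks lay near 8 of 9 (all but Bambi), against 71.2% of all genes. Molar pSmad1/5 peaks also lay near 8 of 9 (all but Bmper), against 74.9%. Molar Smad4 peaks lay near 6 of 9 (Nog, Chrd, Bambi, Fst, Twsg1 and Rgmb), against 68.0%. The limb pSmad1/5 count was thus the one furthest under its background, and the molar Smad4 count was close to it.

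**Figure D1:**
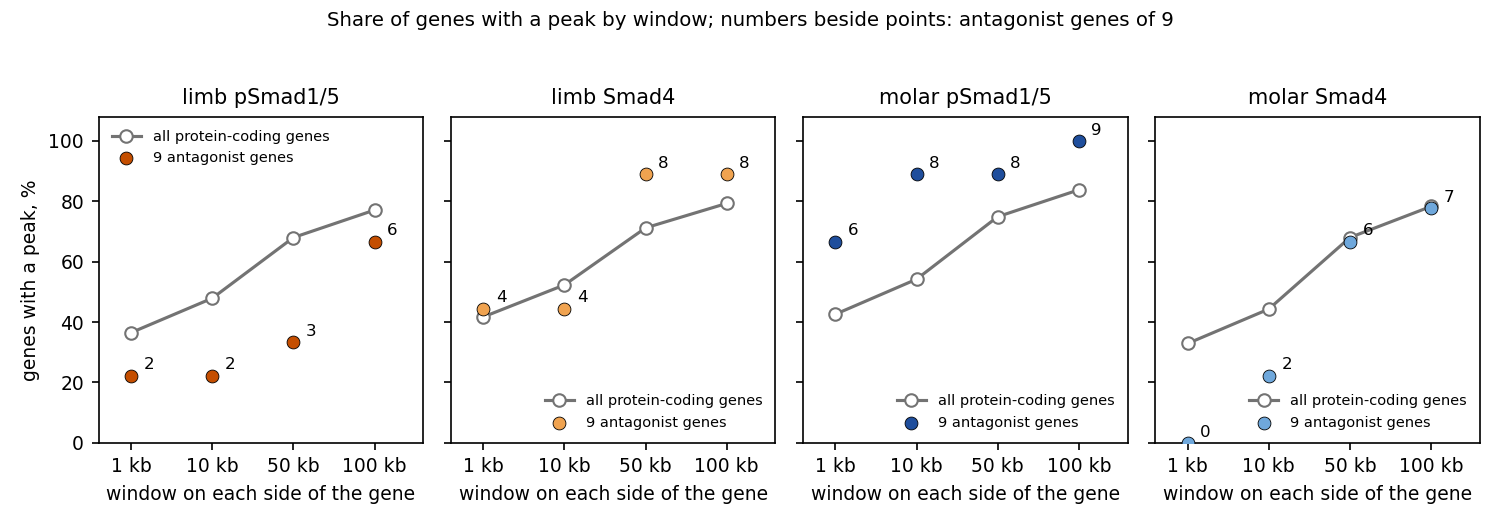
Percent of genes with a peak (vertical axis) by the window allowed on each side of the gene (horizontal axis), 1 panel for each list. Filled points stand for the 9 antagonist genes, with the number of genes beside each point, and open points for all 21887 protein-coding genes; limb pSmad1/5 lies under the background at every window and molar pSmad1/5 above it at every window.

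The order of the 4 lists changed with the distance allowed. Within 10 kb, molar pSmad1/5 peaks still lay near 8 of 9 genes (54.2% of all genes), limb Smad4 near 4 (52.3%), limb pSmad1/5 near 2 (47.9%) and molar Smad4 near 2 (44.3%). Inside the gene or within 1 kb there were 6 for molar pSmad1/5 (42.6%), 4 for limb Smad4 (41.7%), 2 for limb pSmad1/5 (36.5%) and 0 for molar Smad4 (32.9%). Within 100 kb there were 9 for molar pSmad1/5 (83.8%), 8 for limb Smad4 (79.3%), 7 for molar Smad4 (78.3%) and 6 for limb pSmad1/5 (77.1%). Among peaks scoring at least 4, the pSmad1/5 lists of the tissues had equal counts: 3 genes each in molar (27.8%) and limb (34.3%), and 2 each in limb Smad4 (43.4%) and molar Smad4 (39.0%). At a minimum of 3, molar pSmad1/5 had 7 of 9 (64.9%), Sostdc1 being lost. When each list was cut to the same number of top-scoring peaks on every chromosome, limb pSmad1/5 had 3 of 9 (58.5% of all genes), limb Smad4 4 (58.0%), molar pSmad1/5 6 (60.1%) and molar Smad4 4 (56.4%). Limb Smad4, above its background with all peaks, was then under it.

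Several of these genes stand alone in their windows. Nog, Bmper, Bambi, Sostdc1 and Fst had no other protein-coding gene within 50 kb, which holds for 11.3% of protein-coding genes, and the remaining 4 genes had from 1 to 5 neighbours. Among all 2484 such lone genes, a comparison chosen after the values were seen, 46.7% had a limb pSmad1/5 peak, 50.8% a limb Smad4 peak, 59.0% a molar pSmad1/5 peak and 59.1% a molar Smad4 peak. Of the 5 lone antagonist genes, 1, 4, 4 and 3 had one in that order.

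A second description sets each count against the number that the list's mean density on the same chromosome gives for a window of that length. Summed over the 9 windows, the counts were 7 limb pSmad1/5 peaks (exact Poisson 95% interval 2.81 to 14.4, counting error only) where density gave 11.6, 16 limb Smad4 peaks (9.15 to 26.0) where it gave 14.2, 27 molar pSmad1/5 peaks (17.8 to 39.3) where it gave 15.2, and 10 molar Smad4 peaks (4.80 to 18.4) where it gave 12.9. With all peaks and all 9 windows, the density value lay under the interval only for molar pSmad1/5. This density covers the whole chromosome up to its last protein-coding gene, not gene windows alone. Over all protein-coding genes the mean count per window was 2.47, 3.28, 3.03 and 2.35 in the same order. For the 9 genes it was 0.778, 1.78, 3 and 1.11, so molar pSmad1/5 was near that mean and the other lists were under it. Chrd alone held 24 of the 60 peaks. Without it the counts were 3, 8, 17 and 8, where density gave 10.7, 13.1, 12.4 and 11.5. The molar pSmad1/5 density value then lay inside its interval (9.90 to 27.2), and that of limb pSmad1/5 lay above its interval (0.619 to 8.77). Chrd was left out as the gene with the most peaks, a choice that rests on the counts themselves. All these intervals take peaks as independent, although some stand close together, so they may be too narrow. At a minimum of 3, molar pSmad1/5 had 14 peaks (7.65 to 23.5) where density gave 9.62, again inside the interval, and the limb pSmad1/5 count remained 7.

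**Figure D2:**
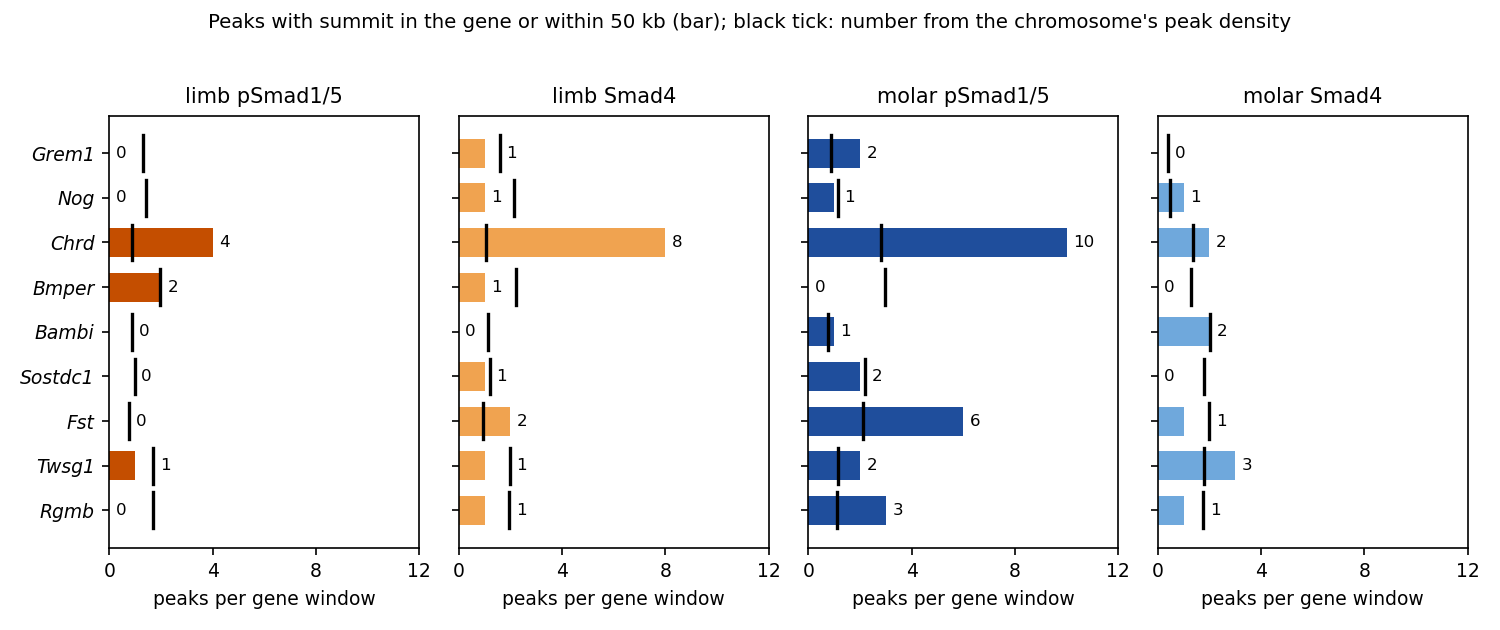
Number of peaks in the 50 kb window of each of the 9 genes (bars, value beside each), 1 panel for each list; black ticks give the number expected from the list's mean density on that chromosome. Chrd has the longest bars in the first 3 panels, with 4, 8 and 10 peaks, and Fst follows with 6 molar pSmad1/5 peaks.

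The median distance of a peak to the nearest end of the antagonist gene was 7509 bp for molar pSmad1/5, against 13206 bp for limb Smad4, 19670 bp for molar Smad4 and 37939 bp for limb pSmad1/5. Within 1 kb of an end lay 9 of 27 molar pSmad1/5 peaks, at 5 genes (Grem1, Chrd, Bambi, Fst and Rgmb), and 2 of 16 limb Smad4 peaks, at Grem1 and Nog. No limb pSmad1/5 or molar Smad4 peak did so. Ends here are those of the gene record, and the printed Chrd start lies inside that record. The limb pSmad1/5 and Smad4 peaks 200 and 450 bp downstream of that start are 1902 and 2152 bp from an end, so they are not counted. As a share of the peaks in the 50 kb windows, peaks within 1 kb of an end made 33.3% for molar pSmad1/5 and 12.5% for limb Smad4. The same share over all protein-coding genes was 8.62% and 8.47%. Counted by gene, 20.7% of all protein-coding genes had a molar pSmad1/5 peak within 1 kb of an end, 21.8% a limb Smad4 peak, 15.5% a limb pSmad1/5 peak and 7.76% a molar Smad4 peak. At a minimum of 3, the molar pSmad1/5 count was 6 of 14 peaks at 4 genes, Chrd being lost, where 15.4% of all genes had one. The 3 Fst peaks and the pair at Rgmb each stand close together. Of all 60 peaks, 21 lay inside the antagonist gene itself, 20 outside it but inside another protein-coding gene and 19 outside protein-coding genes. Some of the 21, all in Chrd, also lay inside Thpo, which overlaps it. Molar Smad4 had 0 of its 10 inside an antagonist gene.

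**Figure D3:**
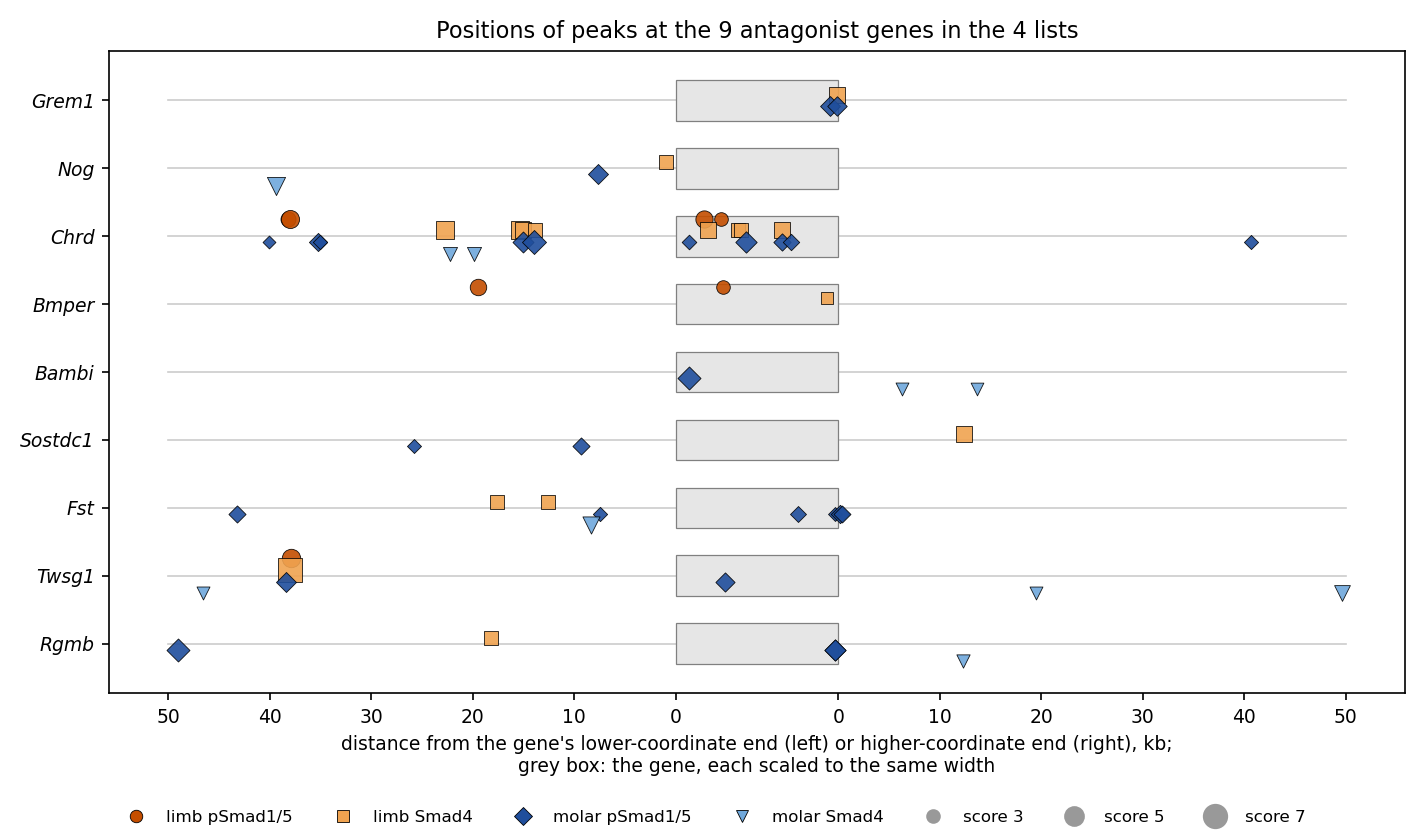
Position of each of the 60 peaks relative to the antagonist gene it was counted for, as distance in kb from the lower-coordinate end (left) or higher-coordinate end (right), with the gene as a grey box of fixed width. Colour and symbol give the list and symbol size the deposited score; peaks gather at 1 end of Grem1, Fst and Rgmb, while Nog and Sostdc1 have none inside the gene.

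Grem1 encodes gremlin, a secreted protein that binds BMP2, BMP4 and BMP7. It lies on chromosome 2 at 113748675 to 113758648, on the minus strand, so that its start is the higher-coordinate end. It had 1 limb Smad4 peak (113758501 to 113758593, score 3.86), 2 molar pSmad1/5 peaks (113758080 to 113758129, score 3.44, and 113758520 to 113758591, score 3.36), 0 limb pSmad1/5 peaks and 0 molar Smad4 peaks. All 3 lay within 531 bp downstream of the start, whose upstream sequence is printed above. The limb Smad4 peak and the nearer molar pSmad1/5 peak overlapped by 72 bp, with summits 18 bp apart, 99 and 81 bp downstream of the start. The nearest limb pSmad1/5 peak was 254.8 kb away and the nearest molar Smad4 peak 298.3 kb away, the latter on a chromosome where that list stops at a score of 4.

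The neighbour Fmn1, a formin gene whose introns are known to hold limb enhancers of Grem1, lies 31.9 kb from it. Inside Fmn1, which spans 389.1 kb, there were 2 pSmad1/5 peaks and 1 Smad4 peak in the limb, where density gave 4.61 and 5.62, and 2 pSmad1/5 peaks and 1 Smad4 peak in the molar, where it gave 3.14 and 1.44. None of these 6 lay within 50 kb of Grem1, and the nearest was the molar Smad4 peak named above.

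Nog encodes noggin, which wraps around BMP dimers and blocks both receptor binding faces. The gene is on chromosome 11 at 89300638 to 89302559. The limb Smad4 list had a peak 995 bp from its lower-coordinate end (score 3.46), the molar pSmad1/5 list a peak at 7705 bp (score 3.47) and the molar Smad4 list a peak at 39385 bp (score 4.82). These 3 lay on the same side of the gene, each of a different list, and none overlapped another. The nearest limb pSmad1/5 peak was 106.3 kb away.

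Chrd encodes chordin, a secreted antagonist that is cut and inactivated by tolloid proteases. It lies on chromosome 16 at 20731425 to 20742384 and overlaps Thpo, the thrombopoietin gene. Its window is the most crowded of the 9, with 5 other protein-coding genes (Eif4g1, Fam131a, Clcn2, Polr2h and Thpo). It held 4 limb pSmad1/5 peaks (interval 1.09 to 10.2) where density gave 0.891, 8 limb Smad4 peaks (3.45 to 15.8) where it gave 1.07, 10 molar pSmad1/5 peaks (4.80 to 18.4) where it gave 2.80, and 2 molar Smad4 peaks (0.242 to 7.22) where it gave 1.36. At a score of at least 3, the pSmad1/5 list of each tissue had 4. This minimum keeps 787 limb and 558 molar pSmad1/5 peaks on the chromosome, so it does not make the lists equal.

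Around the printed Chrd start the limb lists each had a peak and the molar lists differed. A limb pSmad1/5 peak of score 4.48 had its summit 200 bp downstream of the start, and a limb Smad4 peak of score 3.77 followed at 450 bp. These did not overlap. The nearest molar pSmad1/5 peak lay 778 bp upstream with a score of 2.49, which is under the limb minimum, and the nearest molar Smad4 peak 21610 bp upstream. Further into the gene were 1 more limb pSmad1/5 peak, 3 more limb Smad4 peaks and 3 more molar pSmad1/5 peaks.

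The second limb pSmad1/5 peak inside Chrd (20734444 to 20734558, score 3.31) had its summit 19 bp from an end of Thpo, and it is shown because a RefSeq window reaches into it, so that actual peak sequence can be read. The part before the start of Thpo covers 47 of its 115 bases and holds neither GGCGCC nor GGAGCC. The RefSeq window goes on past the start and also covers the summit, but only the part before the start is shown and described here. The peak summit lies outside this part, so the result does not cover the centre of the peak.
Chrd limb pSmad1/5 peak, chr16:20734512-20734558, minus strand: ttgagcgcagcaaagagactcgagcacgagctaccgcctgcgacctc

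The remaining Chrd peaks lay in its neighbours. The 2 limb pSmad1/5 peaks inside Fam131a, 176 and 285 bp from an end of that gene and 38155 and 38046 bp from Chrd, included the highest limb pSmad1/5 score of the window (4.79, rank 27 of 787 on the chromosome). Inside the chloride channel gene Clcn2 lay 4 limb Smad4 peaks, with the highest limb Smad4 score of the window (5.10), 2 molar pSmad1/5 peaks and both molar Smad4 peaks. A further 2 molar pSmad1/5 peaks (scores 3.09 and 2.45) lay inside Fam131a and 1 (2.23) inside Eif4g1, and 1 (2.41) lay 40.7 kb beyond Chrd outside any protein-coding gene. By nearest gene rather than window, Chrd had 2 pSmad1/5 and 4 Smad4 peaks in the limb, and 5 pSmad1/5 and 0 Smad4 peaks in the molar. Peaks inside Chrd and Thpo alike count for each gene by this rule, and the 2 limb pSmad1/5 peaks are of this kind.

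**Figure D4:**
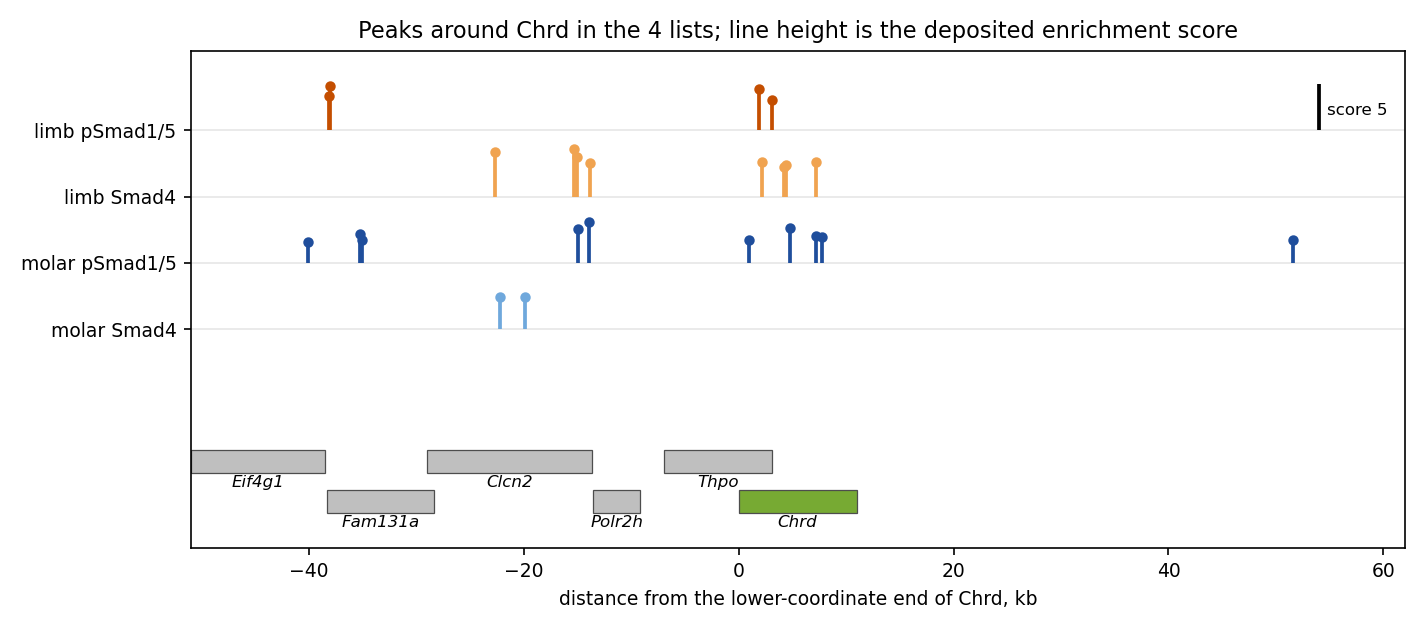
Peaks around Chrd by distance in kb from its lower-coordinate end, with 1 row for each list, line height giving the deposited score (scale bar at right), and protein-coding genes drawn to scale below. Peaks stand at Fam131a and Clcn2 and inside Chrd, 1 molar pSmad1/5 peak lies in Eif4g1, and 1 stands alone 40.7 kb beyond Chrd.

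Fst encodes follistatin, which binds activins tightly and some BMPs. Its position is chromosome 13, 114452262 to 114458989. It had 6 molar pSmad1/5 peaks (interval 2.20 to 13.1) where density gave 2.14, and 3 of these stood within 484 bp of each other around the higher-coordinate end, at 154 bp inside and at 147 and 330 bp outside. Their scores were 2.38, 3.13 and 2.87, and only the peak of 3.13 passes a minimum of 3, so the count at the limb minimum is 1. The limb pSmad1/5 list had none here, with the nearest 580.0 kb away. The limb Smad4 list had 2 peaks, at 12543 and 17619 bp from the lower-coordinate end (scores 3.24 and 3.23), and the molar Smad4 list had 1 at 8338 bp (score 4.44, rank 119 of 2250 on the chromosome). A molar pSmad1/5 peak of score 2.42 lay 829 bp from that molar Smad4 summit without overlapping it.

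Sostdc1, also called ectodin or Wise, encodes a secreted protein that binds BMPs and the Wnt co-receptors. The gene is found on chromosome 12 at 36314169 to 36318452. A limb Smad4 peak stood 12359 bp beyond its higher-coordinate end (score 3.87), and 2 molar pSmad1/5 peaks stood 9351 and 25823 bp from its lower-coordinate end with scores of 2.90 and 2.40. The sides thus differed between these lists. Neither molar peak passes a minimum of 3, so with that minimum in each list Sostdc1 had only the limb Smad4 peak. The nearest limb pSmad1/5 and molar Smad4 peaks, at 63.4 and 66.4 kb, lay outside the window on the higher-coordinate side.

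Twsg1 encodes twisted gastrulation, which joins BMP and chordin in a complex and can favour or oppose signalling. It lies on chromosome 17 at 65923065 to 65951187. It was 1 of 2 genes with a peak in all 4 lists, Chrd being the other, but only 1 of its 7 peaks lay inside it, a molar pSmad1/5 peak of score 3.30. The others stood 19.4 to 49.6 kb away, outside Twsg1. In its window a limb pSmad1/5 peak (score 4.92) and a limb Smad4 peak (score 7.68) overlapped by 58 bp. This limb Smad4 score was the highest of the 60 peaks and ranked 4 of 1467 on the chromosome. A molar pSmad1/5 peak of score 3.46 lay 467 bp from the limb pSmad1/5 summit without overlapping it.

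Bmper encodes a cysteine-rich secreted protein, related to crossveinless 2 of the fly, that binds BMPs and can act for or against signalling. It is the longest of the 9 genes, on chromosome 9 at 23223076 to 23485215. The limb pSmad1/5 list had a peak 19478 bp upstream of its start (score 4.21) and another inside the gene 76026 bp downstream of the start (score 3.30). The limb Smad4 list had a peak inside it (score 3.03), 18423 bp from its far end. No molar peak of either antibody was listed, where density gave 2.96 for pSmad1/5 and 1.28 for Smad4. The molar Smad4 list stops at a score of 4 on this chromosome, above the limb scores of 3.30 and 3.03. Peaks of such scores could therefore not appear in it. The nearest molar peaks lay 66.6 kb (pSmad1/5) and 120.9 kb (Smad4) upstream, so within 100 kb Bmper had a molar pSmad1/5 peak as well.

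Bambi encodes a membrane pseudoreceptor, a BMP receptor-like protein without a kinase, and is known as a BMP target. Bambi spans, on chromosome 18, 3507011 to 3516404. It had the opposite listing to Bmper, with molar peaks of both antibodies and no limb peak. The molar pSmad1/5 peak lay inside the gene 790 bp from its lower-coordinate end (score 4.15, rank 92 of 624 on the chromosome). The 2 molar Smad4 peaks lay 6237 and 13624 bp beyond the other end (scores 3.12 and 3.07). The nearest limb peaks were 72.0 kb (pSmad1/5) and 153.1 kb (Smad4) away, and density gave 0.880 and 1.13 limb peaks for the window. Whether the listings of Bmper and Bambi differ between tissues beyond the variation between libraries was not tested, since each rests on 1 library.

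Rgmb encodes a repulsive guidance molecule, a membrane-anchored BMP co-receptor that favours signalling. It lies on chromosome 17 at 15804661 to 15831246, on the minus strand. The molar pSmad1/5 list had 3 peaks, 2 of them 294 and 326 bp downstream of the start printed above (scores 3.74 and 3.67). They are 14 and 18 bp long, with a gap of 29 bp between them, and the list gives them as separate peaks. The third (score 4.14) lay 49.0 kb away, inside Chd1. The limb Smad4 list had a peak 18199 bp from the far end of Rgmb (score 3.35), which was nearer to Chd1, at 13850 bp. The molar Smad4 list had a peak 12281 bp beyond the higher-coordinate end of Rgmb (score 3.20), and the nearest limb pSmad1/5 peak was 99.6 kb away.

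**Figure D5:**
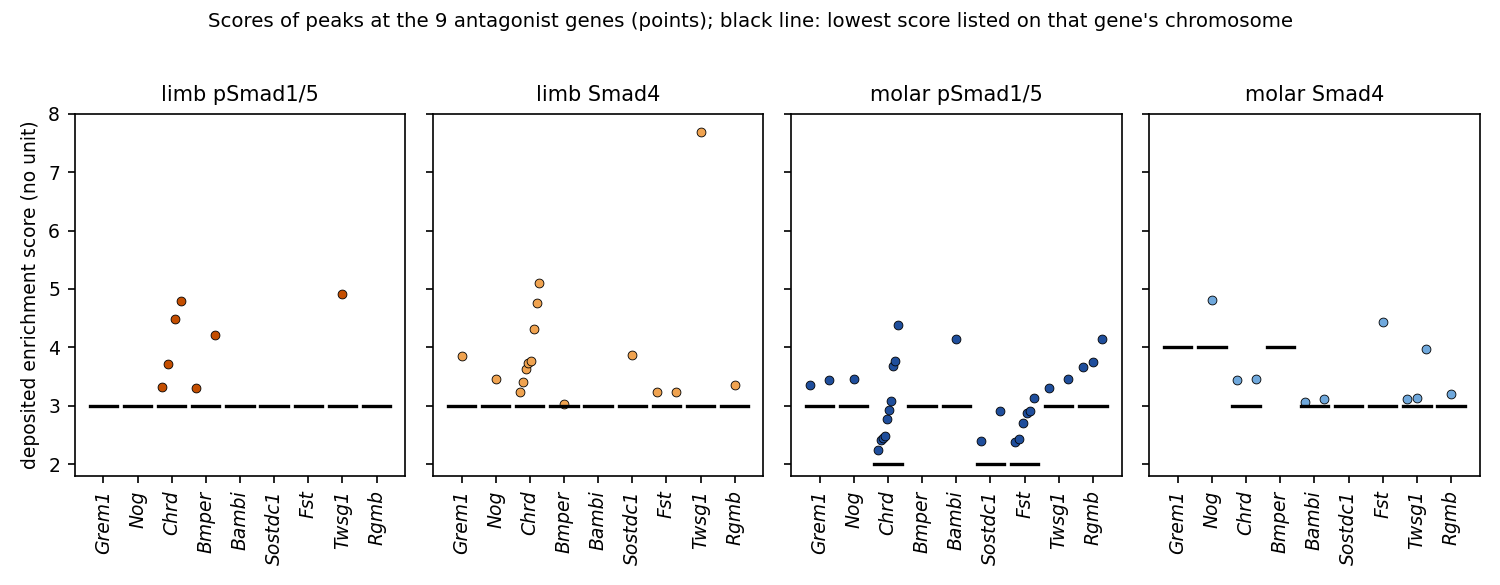
Deposited enrichment score of each of the 60 peaks (points, vertical axis, no unit) by gene, 1 panel for each list; black lines give the lowest score listed on that gene's chromosome in that list. Most points stand close to the line, the limb Smad4 peak of score 7.68 in the Twsg1 window stands apart, and the molar pSmad1/5 points under 3 belong to Chrd, Sostdc1 and Fst.

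A score of at least 4 was reached by 13 of the 60 peaks, where density gave 12.1, so the number was near its background. A further 13 lay under 3, all of these in the molar pSmad1/5 list. In the limb the median score was 4.21 (pSmad1/5) and 3.68 (Smad4), and in the molar it was 3.09 (pSmad1/5) and 3.32 (Smad4). Since the lists differ in their minimum, these medians do not rank the tissues.

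Overlap between lists, of at least 1 bp, was seen at 5 sites. In 4 of them a molar pSmad1/5 peak met a limb Smad4 peak, 1 at Grem1 and 3 in the Chrd window, which is 14.8% of the 27 molar pSmad1/5 peaks and 25% of the 16 limb Smad4 peaks. In the whole lists 1.92% of molar pSmad1/5 peaks and 2.29% of limb Smad4 peaks met in this way. Counted by gene, 2 of the 9 had such a site, against 7.72% of all protein-coding genes, and 3 of the 4 sites belong to a single window. The Chrd sites lay inside Clcn2, at 1337 and 241 bp from an end of that gene, and inside Chrd 3792 bp from its end, with overlaps of 50, 48 and 52 bp. The last of these rests on a molar peak of score 2.93, so at a minimum of 3 there were 3 sites.

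The fifth site was the limb pSmad1/5 and Smad4 overlap in the Twsg1 window, which is 1 of the 7 limb pSmad1/5 peaks and 1 of the 16 limb Smad4 peaks. Such a site lay within 50 kb of 12.7% of all protein-coding genes and of 1 of the 9. No molar pSmad1/5 peak overlapped a molar Smad4 peak in these windows, and neither antibody had a site common to both tissues. Over all protein-coding genes such sites were also rare, at 1.94% for the molar antibodies, 4.82% for pSmad1/5 in both tissues and 1.54% for Smad4 in both tissues, so 0 of 9 is near the background. With summits allowed to lie within 1 kb, each of these pairings was met, with 1 site for the molar antibodies at Fst, 2 limb pSmad1/5 peaks near molar pSmad1/5 peaks (Chrd and Twsg1) and 1 site for Smad4 in both tissues (Chrd). In the whole lists 5.52% of molar pSmad1/5 peaks lay this close to a molar Smad4 peak, 10.4% of limb pSmad1/5 peaks to a molar pSmad1/5 peak and 5.66% of limb Smad4 peaks to a molar Smad4 peak, against 1 of 27, 2 of 7 and 1 of 16 here.

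Peaks just inside and just outside the distance rule overlapped in score. Between 40 and 50 kb from a gene lay 6 counted peaks, at Chrd (scores 2.23 and 2.41), Fst (2.90), Twsg1 (3.13 and 3.97) and Rgmb (4.14). Between 50 and 60 kb lay 5 that were not counted, at Nog (3.41), Chrd (3.04, 3.09 and 4.05) and Sostdc1 (4.16). The uncounted Nog peak is a limb Smad4 peak.

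The same counts were made for 19 other extracellular antagonists and modulators. Of these, 17 had a limb pSmad1/5 peak within 50 kb, 16 a limb Smad4 peak, 19 a molar pSmad1/5 peak and 18 a molar Smad4 peak. Over all protein-coding genes the shares were 68.0%, 71.2%, 74.9% and 68.0% in that order. The medians of the 19 genes were 3, 3, 4 and 5 peaks, with no account taken of window length or density. For the 9 genes the medians were 0, 1, 2 and 1, and over all protein-coding genes 1, 2, 2 and 1. Most peaks were found at Kcp, a kielin/chordin-like modulator (39 over the 4 lists), at Bmp1, a tolloid protease that cuts chordin (39), and at Fstl3, a follistatin relative (30). Of 22 core genes of the pathway (ligands, receptors, Smads and Id genes), 17 had a limb pSmad1/5 peak, 19 a limb Smad4 peak, 18 a molar pSmad1/5 peak and 17 a molar Smad4 peak. The shares over all protein-coding genes given above apply to these counts too. Only the activin receptor gene Acvr2a had none in any list. Differences between these lists and the 9 genes were not tested.

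Among these 41 genes, likeness to the 3 antagonist genes with most peaks was measured as the sum of absolute differences between peak counts over the 4 lists. Nearest to Chrd was the BMP receptor gene Bmpr1a, with 6 pSmad1/5 and 8 Smad4 peaks in the limb and 9 pSmad1/5 and 3 Smad4 peaks in the molar, a sum of 4. Among the nearest to Fst was Fstl1 (1, 3, 6 and 2 in the same order), with a sum of 3. Nearest to Twsg1 was Cer1 (0, 0, 1 and 3), also with a sum of 3.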

How the data were processed

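Peaks had been called by the authors with BCP, set for transcription factors per the labels, on mm10. The submitters' processing notes also name bcl2fastq, Bowtie2, SAMtools, bedtools and deepTools, with no version or role. The sources used here do not give the handling of inputs, duplicates and problem regions. The deposited lists give position, length, summit, score and p-value. The deposited score was used to describe and rank peaks, and the deposited p-value (highest 0.000999) was not used. Read depth is unknown.

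RefSeq (GRCm38.p6) supplied gene positions, without exons or introns. Peaks were assigned by summit within 50 kb, and sharing meant overlap of at least 1 bp. Mean density used chromosome length up to its last protein-coding gene. All 9 genes are named, and other genes by peak number, likeness or place in a window, except some that are not reported here. Members and lists were chosen with earlier results of these data known. Alternatives were other windows, score minimums, equal list lengths, any-base and nearest-gene assignment and summit distances. On simulated lists, 200 of 200 planted shared peaks were recovered. Software was matplotlib 3.10.9, scipy 1.17.1, pandas 2.3.3, numpy 2.4.6 and Python 3.11.15.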

Additional observations from a re-analysis of the deposited data

How the results depend on the processing

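Of the recomputed values, 44 stayed within 1.5 times the value reported and 35 did not. The cause was not tested, apart from narrower windows, higher minimums and shorter lists, which admit fewer peaks by construction. Each run of 4 values lists limb pSmad1/5 first, then limb Smad4, then molar pSmad1/5, with molar Smad4 last. Genes with a peak were 2, 4, 8 and 2 within 10 kb, 2, 4, 6 and 0 within 1 kb, 6, 8, 9 and 7 within 100 kb, 3, 2, 3 and 2 at a score minimum of 4, and 3, 4, 6 and 4 when lists were cut to one length per chromosome by score. Peaks were 3, 7, 17 and 2 within 10 kb, 3, 7, 14 and 0 within 1 kb, 15, 25, 38 and 21 within 100 kb, 4, 4, 3 and 2 at a score minimum of 4, 7, 12, 15 and 5 at equal list lengths, and 4, 10, 19 and 5 by nearest protein-coding gene. At a score minimum of 3, chosen after seeing the data, molar pSmad1/5 peaks fell to 14. Counting any base of a peak changed none of the 8 counts of genes or peaks, and summits within 200 bp none of the 6 counts of shared sites. With summits within 1 kb, shared sites numbered 3 for limb pSmad1/5 with limb Smad4, 1 for molar pSmad1/5 with molar Smad4, 2 for pSmad1/5 in both tissues, 1 for Smad4 in both tissues, and 8 for molar pSmad1/5 with limb Smad4. No paired analysis was possible because each group has 1 library and the result comes from no test.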
